A study of Mus musculus with 12 samples.

Results

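Glutathione S-transferases (GST), UDP-glucuronosyltransferases (UGT) and sulfotransferases (SULT), the phase II conjugation enzymes of the liver, were examined as 44 genes in 12 mouse liver RNA-sequencing libraries. The genes were chosen by symbol and count: symbols beginning with Gsta, Gstm, Gstp, Gstt, Gstk, Gstz, Gsto, Mgst, Ugt1a, Ugt2a, Ugt2b, Ugt3a, Sult1, Sult2, Sult3 or Sult5, pseudogenes left out, with 10 or more counts in at least 3 libraries. The files hold 52636 gene identifiers, 52403 of which matched a symbol, and 64 of those symbols begin as the rule asks. The 44 that also met the count rule comprise 21 GST, 15 UGT and 8 SULT genes. Just inside the count rule lay Ugt1a5, with 10 or more counts in 3 libraries, Ugt1a9 in 6 and Sult1e1 in 7. The 3 libraries of Ugt1a5 were all ko, and the 6 of Ugt1a9 were all on the normal diet. Just outside it lay Gsta1, with 10 or more counts in 2 libraries, and Mgst2 and Ugt1a7c in 1 library each. Of the 20 genes below the rule, 8 had no count in any library, and Sult3 had no member left.

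The livers came from C57BL/6 mice aged 12 weeks that were p53 wild type (wt) or p53 ko, where ko is the label's word for a knockout of the tumour suppressor Trp53, and that were labelled normal or HFD (high-fat diet) for treatment. The 4 groups of 3 libraries are called wt_normal, ko_normal, wt_HFD and ko_HFD. The sources used here do not give the targeted allele, the tissue in which it was deleted, the length and composition of the diet, or the sex. The labels do not say that replicates were separate animals, so a p-value here weighs a difference against the spread of these libraries only, and that spread may be technical.

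Phase II enzymes attach a water-soluble group to a drug, hormone, bile acid or reactive lipid so that transporters can move it into bile or blood. GST enzymes join glutathione to electrophiles, UGT enzymes transfer glucuronic acid or another sugar from a UDP-sugar, and SULT enzymes transfer sulfate from the donor PAPS. Hepatocytes carry out most of this work, and many of the genes are induced through the factors Nrf2 (Nfe2l2), PXR (Nr1i2), CAR (Nr1i3) and the aryl hydrocarbon receptor (Ahr).

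Of the 44 genes, 6 passed the test in at least 1 comparison below, and the promoters of these 6 are shown because their levels differed with diet or genotype. Each window runs from 250 bases before to 50 bases after the RefSeq start on GRCm38.p6, written 5′ to 3′ on the gene's own strand. Capitals mark GCGTG, the core of the element bound by Ahr with Arnt. Gsta2 lies at chr9:78347096-78347395, Gstm1 at chr3:108017924-108018223, Gstp3 at chr19:4059398-4059697 and Gstt1 at chr10:75797682-75797981, all on the minus strand. Gsto1 lies at chr19:47854723-47855022 and Ugt1a9 at chr1:88070529-88070828, on the plus strand.
Gsta2: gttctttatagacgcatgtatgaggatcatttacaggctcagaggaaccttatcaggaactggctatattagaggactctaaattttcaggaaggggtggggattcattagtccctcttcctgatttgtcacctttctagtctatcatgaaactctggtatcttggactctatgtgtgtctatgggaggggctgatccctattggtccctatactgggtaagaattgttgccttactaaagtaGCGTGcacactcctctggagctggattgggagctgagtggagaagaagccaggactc
Gstm1: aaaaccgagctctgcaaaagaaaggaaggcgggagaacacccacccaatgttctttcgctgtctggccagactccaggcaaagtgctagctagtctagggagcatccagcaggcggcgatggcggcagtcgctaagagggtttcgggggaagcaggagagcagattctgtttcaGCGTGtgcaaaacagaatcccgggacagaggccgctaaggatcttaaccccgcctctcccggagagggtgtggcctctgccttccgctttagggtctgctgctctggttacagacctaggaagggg
Gsto1: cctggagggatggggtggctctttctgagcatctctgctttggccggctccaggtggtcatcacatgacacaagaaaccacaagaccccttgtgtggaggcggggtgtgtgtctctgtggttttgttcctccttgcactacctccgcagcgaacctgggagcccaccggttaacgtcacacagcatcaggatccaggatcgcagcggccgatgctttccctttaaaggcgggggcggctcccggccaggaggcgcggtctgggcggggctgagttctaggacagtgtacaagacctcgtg
Ugt1a9: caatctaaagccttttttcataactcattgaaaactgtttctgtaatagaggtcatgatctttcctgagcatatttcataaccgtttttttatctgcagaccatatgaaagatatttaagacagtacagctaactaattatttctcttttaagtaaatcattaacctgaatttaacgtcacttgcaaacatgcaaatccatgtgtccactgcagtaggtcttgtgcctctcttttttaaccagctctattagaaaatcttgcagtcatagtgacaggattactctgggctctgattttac
Gstp3: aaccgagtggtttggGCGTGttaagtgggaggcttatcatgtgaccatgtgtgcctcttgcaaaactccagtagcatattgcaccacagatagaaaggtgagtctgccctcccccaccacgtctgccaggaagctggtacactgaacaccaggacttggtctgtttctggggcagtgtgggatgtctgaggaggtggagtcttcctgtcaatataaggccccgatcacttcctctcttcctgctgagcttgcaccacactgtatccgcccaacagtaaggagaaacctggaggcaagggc
Gstt1: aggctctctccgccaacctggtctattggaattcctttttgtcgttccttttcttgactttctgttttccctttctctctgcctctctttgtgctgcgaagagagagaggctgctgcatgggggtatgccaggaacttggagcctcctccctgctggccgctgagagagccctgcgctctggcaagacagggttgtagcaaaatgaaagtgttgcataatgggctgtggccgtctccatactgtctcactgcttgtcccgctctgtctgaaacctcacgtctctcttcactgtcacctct

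GCGTG begins at base -7 from the start of Gsta2, at -76 in Gstm1 and at -235 in Gstp3, and was not found on either strand of the windows of Gsto1, Ugt1a9 and Gstt1. Gstm1 has another RefSeq start, with its window at chr3:108017769-108018068, from which the same GCGTG begins at -231. TGACNNNGC, the core of the antioxidant response element bound by Nrf2 with a small Maf protein, was searched on both strands too and was in none of these 6 windows. RefSeq promoters were found for 39 of the 44 genes, as 49 windows in all, since some genes have several starts. GCGTG was in 10 of the 49 windows (20.4%), against 32.4% of all 32851 windows in the table, and TGACNNNGC was in 4 (8.16%), against 12.4%. By gene, GCGTG was in 9 of the 39, since overlapping windows of Gstm1 hold the same site. These counts describe letters in a short window and say nothing about whether a factor binds there.

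Libraries held 15465187 to 20492567 counts. The mitochondrial share was 4.18% to 7.22% in 10 libraries, 10.3% for ko_HFD replicate 2 and 14.6% for ko_normal replicate 1, where Gsta2 and Gstm1 were at their highest. The deleted gene followed the labels: Trp53 measured 16.3, 14.5 and 15.6 CPM (the count scaled to library size and TMM factor) in wt_normal and 8.54, 10.7 and 24.5 in wt_HFD, against 0.273 to 1.62 in the 6 ko libraries (averaged log2 difference -4.33 ± 0.39, SE, adjusted p = 0.000411 in edgeR's quasi-likelihood test, described below). Hepatocyte markers were high throughout. Replicate 2 of wt_normal stood apart by skeletal muscle markers, summed at 6247 CPM against at most 10.1 elsewhere, by B cell markers, at 133 CPM against at most 10.7, and by stellate cell markers, at 738 CPM against at most 185. Of the stellate sum 547 CPM were Des, which muscle expresses too. Replicate 2 of wt_HFD stood apart by bile duct markers, at 62.6 CPM against at most 15.5. The 5 muscle markers each had counts in all 12 libraries, while the bile duct marker Cftr and the B cell marker Ms4a1 were at 0 in some. All libraries carried Y-linked transcripts, summed with Xist at 61.0 to 95.8 CPM, and few female-biased liver transcripts, at 0.903 to 12.6 CPM in sum.

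Per kilobase of exon, the scale on which genes are compared here, levels spanned from 1349 CPM per kilobase for Mgst1 to 0.221 for Ugt1a5, as means of 12 libraries. Mgst1, a membrane-bound microsomal transferase, ranged from 716 to 1793 CPM per kilobase and Gstp1, the main pi-class enzyme, from 627 to 1526, so these neighbours in rank overlap. Gstm1, a mu-class enzyme, followed at 158 to 881. Ugt2b5 and Ugt2b36, which belong to the Ugt2b subfamily that acts on steroids and bile acids, led the UGT genes at 249 to 400 and 156 to 256. Sult2a8, a sulfotransferase of mouse liver known to act on bile acids, and Sult1a1, which sulfates small phenols, led the SULT genes with overlapping ranges of 88.0 to 209 and 67.8 to 206.

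**Figure D1:**
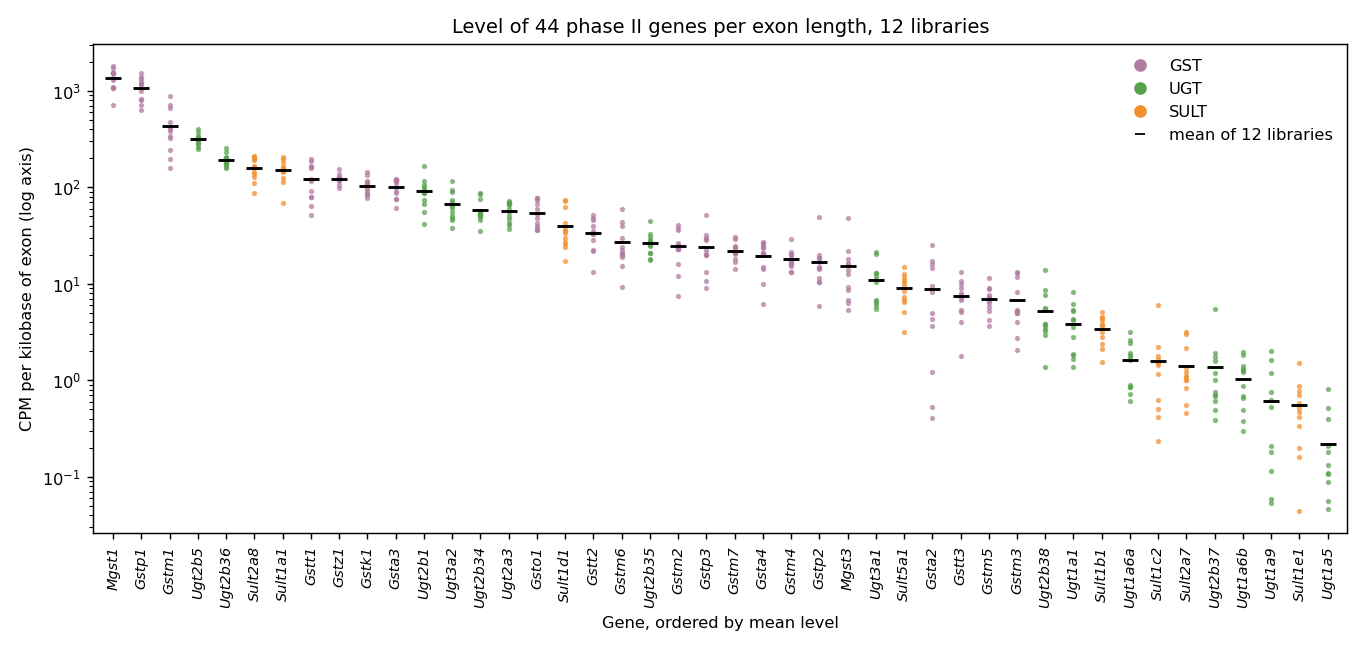
Level of each of the 44 genes in each of the 12 libraries (points, CPM per kilobase of exon, log axis), ordered by the mean (black bar) and coloured by family; values of 0, in 1 library each for Ugt1a5 and Ugt1a9, cannot be drawn on a log axis. Mgst1, Gstp1 and Gstm1 stand highest and Ugt1a5 lowest, and Gsta2 has 3 points far below the rest.

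On the CPM scale the 44 genes together took 7825 to 11195 CPM of each library. GST genes made up 5440 to 8220 CPM of this, UGT genes 1492 to 2484 and SULT genes 656 to 1255. Mgst1 and Gstp1 carried 54.0% to 73.5% of the GST sum, and Sult2a8 and Sult1a1 carried 74.6% to 90.1% of the SULT sum. The UGT sum was less concentrated, with 41.3% to 56.6% in Ugt2b5 and Ugt2b36. Sult2a1 and Sult3a1, known as female-biased in mouse liver, had 7 and 2 counts over all 12 libraries.

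Several members have close copies that the authors' counting could split in ways the files do not show. Coding sequences of Gstp1 and Gstp2 were identical at 98.1% of bases, those of Ugt1a6a and Ugt1a6b at 98.4%, and those of Ugt2b38 and Ugt2b5 at 97.0%. Gsta2 matched Gsta1 at 97.6%, and Ugt2b37 matched Ugt2b5 at 94.7%. Of genes below the count rule, Ugt1a7c matched Ugt1a6a at 100% and Ugt1a10 matched Ugt1a9 at 95.3%. Members of the Ugt1a locus share their last exons, so 50.3% to 60.6% of the exon bases of each gene model are common to other models. Values of these genes, Gsta2 and Ugt1a9 included, are uncertain to that extent.

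In wt livers, 3 of the 44 genes passed the test for HFD against the normal diet. Gsta2 and Gstm1 fell and Gstp3 rose, each at an adjusted p under 0.05 in edgeR's quasi-likelihood test with Benjamini-Hochberg adjustment over 14433 genes, while the other 41 did not pass. The 3 calls are 6.82% of the members, beside 0.693% of all genes tested (0.43% higher and 0.263% lower). Among the 8 members that DESeq2 called was Ugt1a9, which met the count rule only through normal-diet libraries. These 8 stand beside 2.39% of all genes that DESeq2 tested. That share, like each DESeq2 share below, is over 26011 genes, with no filter on low counts beforehand. It may therefore understate the share among genes counted as often as the members. In these bulk libraries, fewer cells of a type and less RNA per cell cannot be told apart.

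Gsta2, an alpha-class transferase inducible through Nrf2, measured 17.1, 20.3 and 19.1 CPM in wt_normal and 0.481, 1.42 and 0.623 CPM in wt_HFD. Every wt_HFD library lay far below every wt_normal library, and the counts behind the low values were 8, 22 and 11. The mean went from 18.8 ± 1.6 to 0.841 ± 0.506 CPM (SD, n = 3 each), a fitted fall of 22.4-fold. On the log2 scale the fitted change was -4.49 ± 0.48 (SE, adjusted p = 0.00151). Its near copy Gsta1 had 0 to 20 counts in the 12 libraries, 15 of them in wt_HFD replicate 2 beside 22 of Gsta2, and how reads common to both copies were counted was not given in the sources used here. Most of the summed alpha-class CPM is Gsta3, named after its values were seen. Gsta3 measured 509, 514 and 520 CPM in wt_normal and 382, 267 and 325 CPM in wt_HFD. Its log2 change of -0.66 was far smaller than that of Gsta2 and did not pass.

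Gstm1 measured 1035, 612 and 589 CPM in wt_normal and 287, 233 and 355 CPM in wt_HFD. The groups did not overlap, although replicate 1 of wt_normal stood well above the other two. Its mean went from 745 ± 251 to 291 ± 61.0 CPM (SD, n = 3 each), a log2 change of -1.35 ± 0.28 (SE, adjusted p = 0.0483). This call lay close to the threshold: leaving out 1 library at a time kept it in 1 of 12 fits, that without ko_normal replicate 1, with adjusted p from 0.0365 to 0.139 and log2 changes from -1.52 to -1.04.

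The other mu-class genes, which share a cluster with Gstm1, had negative fitted values in 5 of 6 cases, and none of these passed the test. The median log2 change over the 7 Gstm genes was -0.91, with a range from -1.35 to 0.34, beside -0.03 over all genes tested. Summed over the class, Gstm levels were 744 to 1283 CPM in wt_normal and 334 to 516 CPM in wt_HFD. The 2 ranges do not overlap, and most of either sum is Gstm1.

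Gstp3, a pi-class gene beside Gstp1 and Gstp2, was the member that rose. It measured 12.1, 8.19 and 9.66 CPM in wt_normal and 46.6, 17.9 and 28.7 CPM in wt_HFD, so that the groups did not overlap but the HFD libraries were widely spread. The log2 change was 1.64 ± 0.28 (SE, adjusted p = 0.0264). The call was lost without wt_normal replicate 2, wt_normal replicate 3, ko_normal replicate 3 or wt_HFD replicate 1, with adjusted p up to 0.0984 and log2 changes from 1.23 to 1.95 over the 12 fits. Gstp1, far more abundant, measured 2044, 2363 and 2124 CPM in wt_normal and 1247, 1912 and 970 CPM in wt_HFD, a log2 change of -0.66 ± 0.26 that missed the threshold (adjusted p = 0.223).

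**Figure D2:**
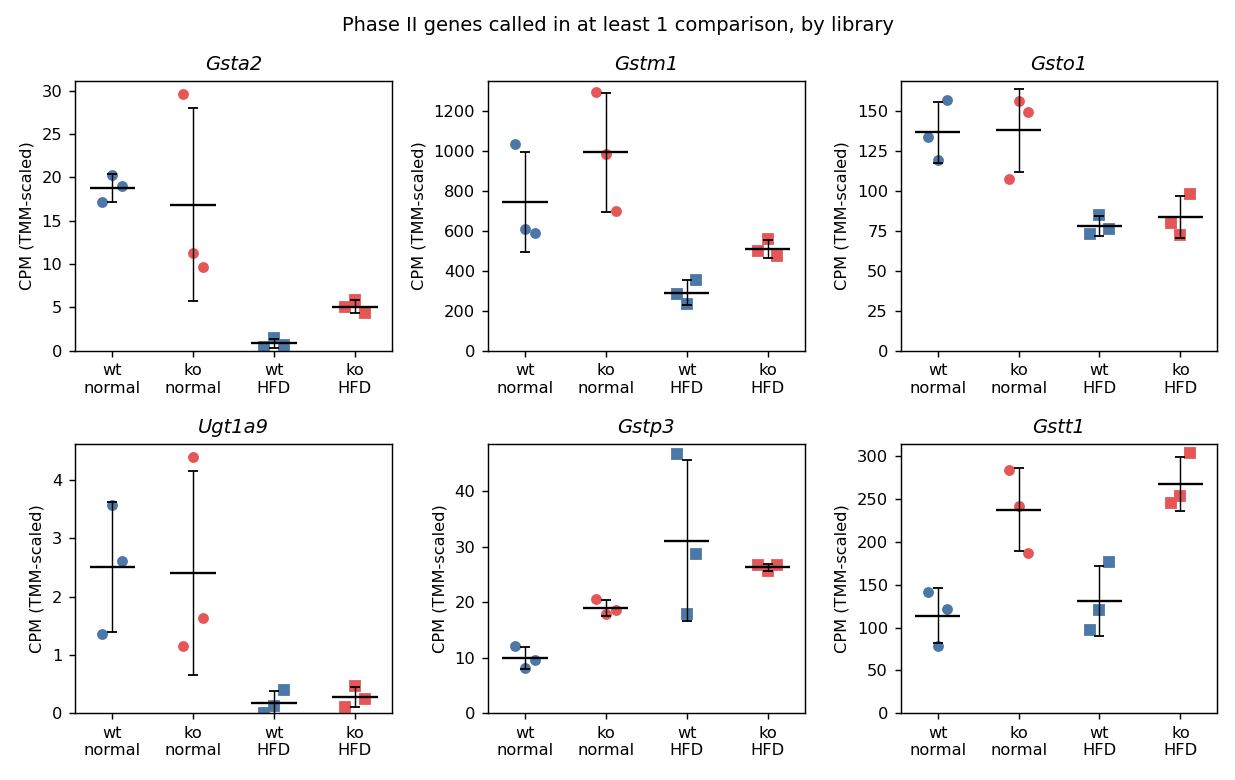
CPM of the 6 genes called in at least 1 comparison, by library (points; circles normal diet, squares HFD; blue wt, red ko), with the group mean (bar) and SD (whiskers, n = 3). Gsta2 sits at 0.481 to 1.42 CPM in wt_HFD, below all other libraries, and Gstt1 is higher in every ko library than in any wt library.

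With the called genes counted in, the lower side held more members than the higher side in wt livers. Groups did not overlap, with HFD lower, for 13 of 44 members (29.5%), beside 10.7% of all genes tested. The 13 include Ugt1a9, which met the count rule only through normal-diet libraries, so its separation is not independent of its choice as a member. With HFD higher the count was 3 of 44 (6.82%), beside 11.2%, and the 3 were Gstp3, Sult1c2 and Ugt2b37. The median log2 change was -0.28 over the members, 31 of which were negative, against -0.03 over all genes. At an unadjusted p under 0.05 there were 16 members (36.4%), beside 17.0% of all genes.

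Gsta4, an alpha-class enzyme known for conjugating the lipid peroxidation product 4-hydroxynonenal, measured 30.3, 26.3 and 26.1 CPM in wt_normal and 7.88, 17.8 and 12.5 CPM in wt_HFD. Its groups did not overlap, but the log2 change of -1.11 ± 0.26 missed the threshold (adjusted p = 0.0773). Sult1d1, which sulfates catecholamines in mouse, measured 83.2, 90.1 and 154 CPM in wt_normal and 66.7, 58.7 and 42.2 CPM in wt_HFD, a log2 change of -0.97 ± 0.40 (adjusted p = 0.248). Of the 7 genes highest per kilobase, Gstm1 fell and Gstp1 had the value given above. The log2 changes of the other 5 were 0.40 ± 0.27 for Mgst1, -0.24 ± 0.18 for Ugt2b5, -0.35 ± 0.18 for Ugt2b36, 0.31 ± 0.20 for Sult2a8 and -0.16 ± 0.32 for Sult1a1, none passing.

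Ugt2b37 and Sult1c2 had large positive values on few counts. Ugt2b37 measured 0.739, 1.29 and 1.33 CPM in wt_normal and 1.44, 3.61 and 10.3 CPM in wt_HFD, a log2 change of 2.18 ± 0.66 (adjusted p = 0.132). Sult1c2, named after its values were seen, measured 2.83, 11.03 and 2.15 CPM in wt_HFD against 0.431, 0.762 and 0.920 CPM in wt_normal. Its log2 change was 2.89 and missed the threshold in edgeR. The Wald test of DESeq2 called both Ugt2b37 (adjusted p = 0.0214) and Sult1c2 (adjusted p = 0.000225). The highest value of Sult1c2 is in the wt_HFD library with bile duct markers at 62.6 CPM, and the part of those cells in it was not tested. Mgst3, also named after its values were seen, reached 52.8 CPM in the wt_normal library with muscle markers, against 5.84 to 24.1 CPM in the other 11, and the part of muscle in that was not tested either. Without both of these libraries, an alternative added after the data were seen, Gsta2 and Gstp3 kept their calls in wt, at log2 changes of -5.01 and 1.79, and Gstm1 lost it (adjusted p = 0.197).

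The marker lists were set beside these results. Endothelial markers, 5 in number, none at 0 and none called, summed to 185 to 220 CPM in wt_normal and 103 to 166 CPM in wt_HFD. Stellate markers, also 5 with none at 0 and none called, overlapped at 118 to 738 and 58.4 to 185 CPM. Hepatocyte markers overlapped, at 43852 to 57922 and 49660 to 55222 CPM in sum. Of the hepatocyte list Cps1, the first enzyme of the urea cycle, fell on HFD when averaged over genotypes (log2 change -1.07 ± 0.22, adjusted p = 0.0413), and kept this in 2 of 12 fits without 1 library, those without wt_HFD replicate 3 or ko_HFD replicate 3. The part of these shifts in the values of the conjugation enzymes was not tested.

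In ko livers, HFD gave no member an adjusted p under 0.05 by edgeR, where 0% of all genes were called. DESeq2 called 2 members, Gsta2 and Ugt1a9, beside 0.135% of all genes, and 7 members (15.9%) had an unadjusted p under 0.05 in edgeR, beside 5.63% of all genes. Ugt1a9 met the count rule only through normal-diet libraries. Gsta2 measured 29.7, 11.2 and 9.70 CPM in ko_normal and 5.02, 5.87 and 4.33 CPM in ko_HFD. These groups did not overlap either, and the fitted value was -1.73 ± 0.41 on the log2 scale (SE, adjusted p = 0.469). This value rested in part on ko_normal replicate 1, the library with 14.6% mitochondrial counts, and was -1.05 without it; the part of that share in it was not tested. Gstm1 measured 1298, 983 and 700 CPM in ko_normal and 499, 562 and 474 CPM in ko_HFD, which gave -0.96 ± 0.27 on the log2 scale (adjusted p = 0.600).

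Non-overlapping groups with HFD lower numbered 5 of 44 in ko (11.4%), beside 5.96% of all genes, and were Gsta2, Gstm1, Gstm2, Gsto1 and Ugt1a9. Of these, Ugt1a9 met the count rule only through normal-diet libraries, so its separation is not independent of its choice as a member. With HFD higher there were also 5 (11.4%), beside 5.45%. The median log2 change over the members was -0.08, with 29 of 44 negative, beside -0.00 over all genes. The diet comparisons in wt and in ko share no library, only the fitted spread: 24 members were negative in both, 8 were positive in both, and the size of the change was larger in wt for 34. The same counts over all genes were not made here. Over all genes too, an unadjusted p under 0.05 was more frequent in wt, at 17.0% against 5.63% in ko.

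The difference between the diet effects was tested by the interaction term, and no member passed it in edgeR, where 0% of all genes were called. DESeq2 called 1 member, Gsta2, beside 0.0577% of all genes, and 4 members (9.09%) had an unadjusted p under 0.05 in edgeR, beside 5.02%. The diet change of Gsta2 was 2.76 ± 0.61 higher in ko than in wt on the log2 scale, with an adjusted p of 0.675 in edgeR and 0.0159 in DESeq2, and it was 3.44 without ko_normal replicate 1 (adjusted p = 0.111 in edgeR). Its levels in ko_HFD, 4.33 to 5.87 CPM, lay above the 0.481 to 1.42 CPM of wt_HFD without overlap. The term for Gstp3 was -1.17 ± 0.39 (adjusted p = 0.913) and that for Ugt2b37 was -2.59 ± 0.91 (adjusted p = 0.913), which became -1.56 without wt_HFD replicate 3 and -3.38 without ko_HFD replicate 3.

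Averaged over both genotypes, 6 libraries against 6, 4 members fell and 1 rose on HFD. These 5 are 11.4% of the members, beside 1.04% of all genes tested (0.457% lower and 0.582% higher). Ugt1a9, among these 5, met the count rule only through its normal-diet libraries. At an unadjusted p under 0.05 there were 16 (36.4%), beside 17.6%, and DESeq2 called 9, beside 2.81% of all genes. Gsta2 fell by 3.11 ± 0.32 on the log2 scale (SE, adjusted p = 0.000787) and Gstm1 fell by 1.16 ± 0.20 (adjusted p = 0.0186). Gstp3 rose by 1.06 ± 0.19 (adjusted p = 0.0286), although its value in ko alone was 0.47 ± 0.27, with 20.5, 17.8 and 18.6 CPM in ko_normal and 26.7, 25.6 and 26.6 CPM in ko_HFD.

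Gsto1, an omega-class enzyme with thioltransferase and dehydroascorbate reductase activity, passed only in this averaged test among the 7 comparisons. It measured 134, 119 and 157 CPM in wt_normal and 108, 156 and 150 CPM in ko_normal. With HFD it measured 73.1, 85.2 and 76.1 CPM in wt and 80.2, 72.3 and 98.0 CPM in ko. All 6 HFD libraries were below all 6 normal-diet libraries, and the log2 change was -0.77 ± 0.13 (SE, adjusted p = 0.0217).

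Ugt1a9, whose human counterpart glucuronidates phenols, also passed in the averaged test alone. Its CPM were 1.35, 3.57 and 2.61 in wt_normal and 1.16, 4.39 and 1.64 in ko_normal. With HFD they were 0, 0.129 and 0.397 in wt and 0.117, 0.460 and 0.251 in ko, which stands for 0 to 8 counts a library. All HFD libraries again lay below all normal-diet libraries, and the fitted log2 change was -3.43 ± 0.58 (SE, adjusted p = 0.0186). The 6 normal-diet libraries alone gave Ugt1a9 10 or more counts, so it met the count rule only through the diet where it is high. Its separation by diet is thus not independent of its choice as a member. Of the other Ugt1a genes, which share exons with it, none passed, and Ugt1a1, the bilirubin-conjugating enzyme, overlapped between diets in both genotypes.

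These averaged calls differed in how much they leaned on single libraries. Gsta2 kept its call in all 12 fits that left out 1 library. Gstm1 lost it without wt_HFD replicate 2 or ko_HFD replicate 1, with adjusted p up to 0.0645. Ugt1a9 lost it without ko_normal replicate 2, wt_HFD replicate 2 or ko_HFD replicate 1, with adjusted p up to 0.0645, and its log2 change was -4.13 without wt_HFD replicate 3. Gsto1 lost it without wt_normal replicate 3, ko_normal replicate 2, ko_normal replicate 3, wt_HFD replicate 1 or ko_HFD replicate 1, with adjusted p up to 0.0707. Gstp3 lost it without wt_normal replicate 2 or 3, any ko_normal replicate or ko_HFD replicate 1, with adjusted p up to 0.0817. Without both libraries that stood apart, Gsta2 and Gstp3 stayed called, and Gstm1 (adjusted p = 0.0609), Gsto1 (0.0511) and Ugt1a9 (0.0819) were not.

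**Figure D3:**
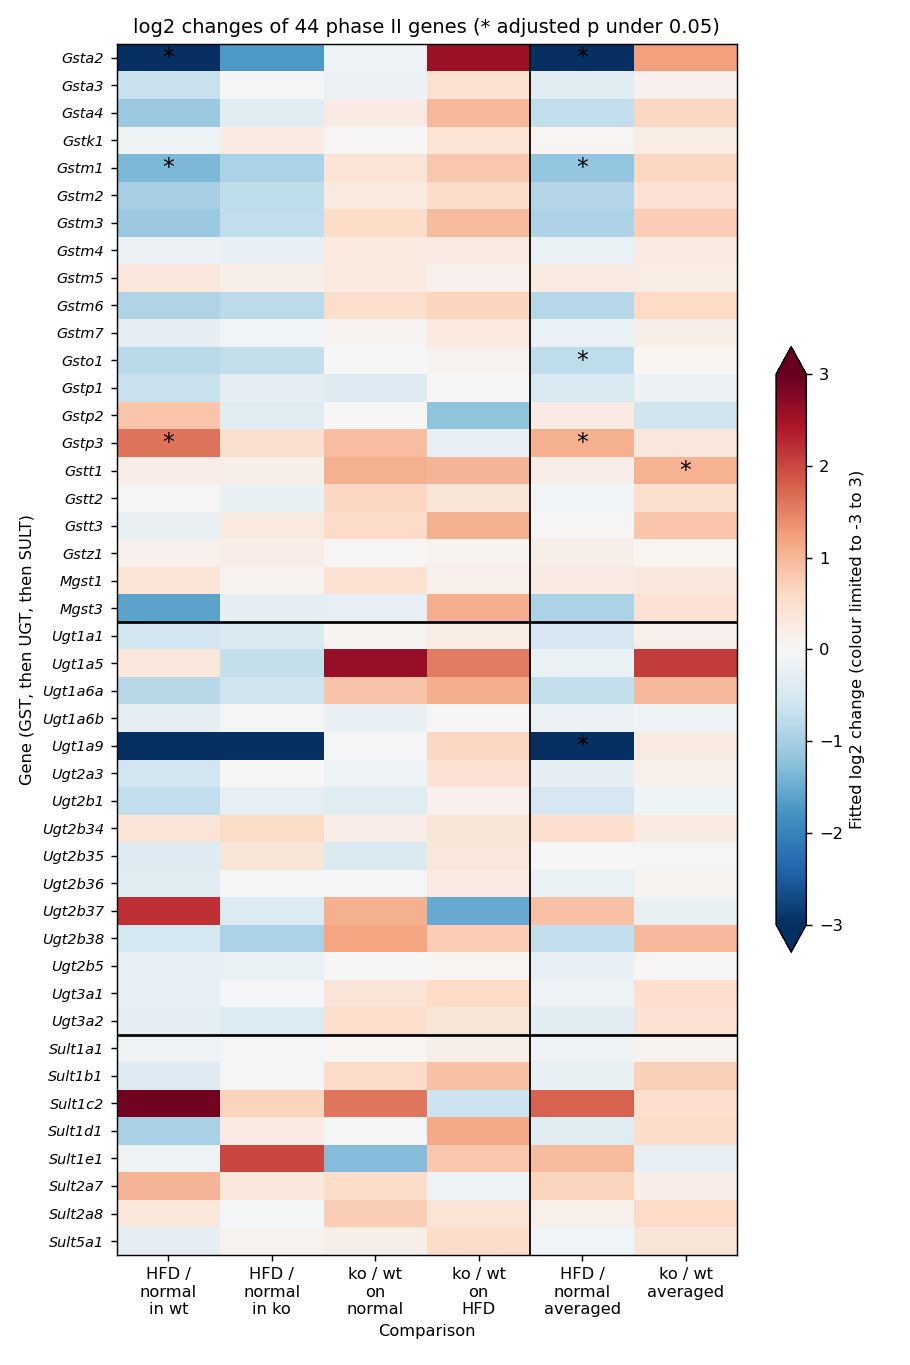
Fitted log2 change of each of the 44 genes (rows, by family) in the 4 comparisons of single groups and the 2 averaged ones (columns), with colour limited to -3 to 3 and an asterisk at an adjusted p under 0.05. Blue cells dominate the HFD columns among the Gsta and Gstm genes, and red cells dominate the ko columns.

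Loss of p53 gave 1 call among the members, again only when averaged. The theta-class gene Gstt1, whose enzyme acts on small halogenated compounds, was higher in ko than in wt, and this 1 member is 2.27% of the 44, beside 1.16% of all genes called (0.79% higher). At an unadjusted p under 0.05 there were 12 members (27.3%), beside 18.7%, and DESeq2 called 8, beside 3.03% of all genes. Gstt1 measured 141, 78.9 and 122 CPM in wt_normal and 284, 241 and 187 CPM in ko_normal. On HFD it measured 96.9, 120 and 177 CPM in wt and 246, 254 and 303 CPM in ko. No wt library reached any ko library on either diet.

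The averaged log2 difference of Gstt1 was 1.04 ± 0.19 (SE, adjusted p = 0.0245), a 2.06-fold higher level. Within a diet it was 1.06 ± 0.26 on the normal diet (adjusted p = 0.101) and 1.03 ± 0.26 on HFD (adjusted p = 0.314). The averaged call was lost without wt_normal replicate 3, ko_normal replicate 1, wt_HFD replicate 2, ko_HFD replicate 2 or ko_HFD replicate 3, with adjusted p up to 0.0645 and log2 values from 0.95 to 1.18, and without both libraries that stood apart (0.91, adjusted p = 0.0911). In that last fit Mgst3, a microsomal transferase whose highest value is in the wt_normal library with muscle markers, was called instead, higher in ko (log2 difference 1.13, adjusted p = 0.0466).

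The other theta-class genes lie beside Gstt1 on chromosome 10, and their fitted differences were positive on both diets without passing. Summed over the 3 Gstt genes, levels were 218 to 284 CPM in wt_normal and 404 to 513 CPM in ko_normal, and 247 to 290 CPM in wt_HFD and 438 to 495 CPM in ko_HFD. Neither pair of ranges overlaps. Gstt1 had the highest mean of the 3 genes in both ko groups, at 237 ± 48.6 and 267 ± 31.1 CPM (SD, n = 3 each).

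**Figure D4:**
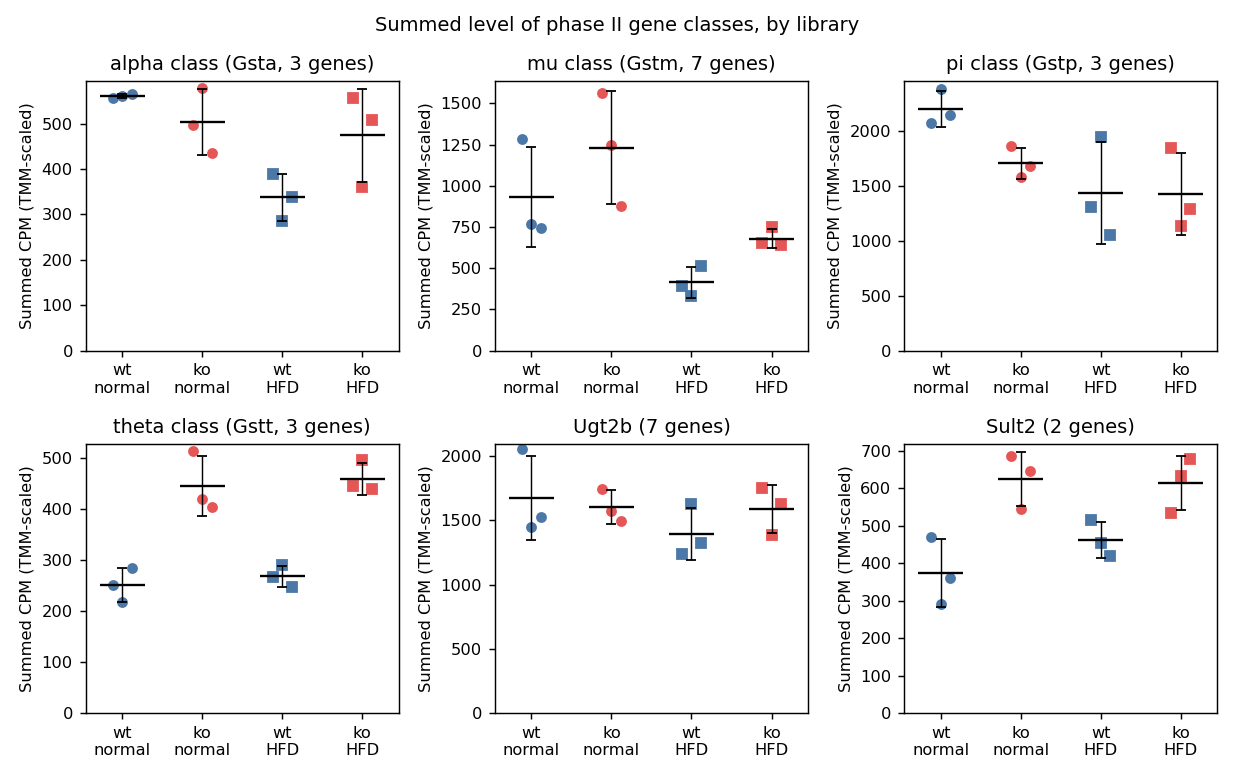
Summed CPM of 6 enzyme classes by library (points; circles normal diet, squares HFD; blue wt, red ko), with the group mean (bar) and SD (whiskers, n = 3). The Gstt sum is higher in every ko library than in any wt library, and the Gstm sum is lower in each HFD group than in the normal-diet group of the same genotype.

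On the normal diet, ko against wt gave no member an adjusted p under 0.05 in edgeR, beside 0.208% of all genes. DESeq2 called 2 members, Gstt1 and Sult2a8, beside 1.91% of all genes, and 6 members (13.6%) had an unadjusted p under 0.05 in edgeR, beside 15.1%. Sult2a8 measured 468, 289 and 359 CPM in wt_normal and 685, 542 and 643 CPM in ko_normal, a log2 difference of 0.74 ± 0.20 (adjusted p = 0.123) with no overlap between the groups. Gstp3 was at 8.19 to 12.1 CPM in wt_normal and 17.8 to 20.5 CPM in ko_normal, a log2 difference of 0.93 ± 0.28 (adjusted p = 0.143). This comparison shares its wt_normal libraries with the diet comparison in wt, where Gstp3 rose.

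On HFD, ko against wt also gave 0 calls among the members in edgeR, beside 0.0693% of all genes. DESeq2 called 2 members, Gsta2 and Gstt1, beside 0.319% of all genes, and 11 members (25.0%) had an unadjusted p under 0.05 in edgeR, beside 8.85%. Gsta2 was 2.60 ± 0.47 higher on the log2 scale (SE, adjusted p = 0.0805, and 0.0171 without ko_normal replicate 1), a comparison that shares the low wt_HFD libraries with the diet comparison in wt. Gsta4 measured 32.0, 25.6 and 18.7 CPM in ko_HFD against 7.88 to 17.8 CPM in wt_HFD, a log2 difference of 1.0 ± 0.26 (adjusted p = 0.325).

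Fitted differences leaned to the ko side. They were positive for 31 of 44 members on the normal diet and for 38 of 44 on HFD, with medians of 0.22 and 0.39 on the log2 scale, beside -0.02 and -0.01 over all genes. The comparison on HFD shares its wt_HFD libraries with the diet comparison in wt, where most members were negative. These leans are therefore not independent. Groups did not overlap, with ko higher, for 10 members on the normal diet (22.7%, beside 11.4% of all genes) and for 10 on HFD (22.7%, beside 6.70%). The 10 on the normal diet include Ugt1a5, which met the count rule only through ko libraries. With ko lower there were 2 on the normal diet (4.55%, beside 11.4%), Gstp1 and Ugt2b35, and 0 on HFD, beside 6.85%.

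The sum of the hepatocyte markers was higher in ko than in wt, without overlap on either diet, and Alb and Apoa1 made up most of it. Not all members followed: mean Cps1 on the normal diet was 1326 CPM in wt and 949 in ko, and mean Cyp2e1 was 7238 and 6503 CPM. The sum of 6 markers was 43852 to 57922 CPM in wt_normal and 49660 to 55222 CPM in wt_HFD, against 74816 to 79650 CPM in ko_normal and 74826 to 84045 CPM in ko_HFD. None of the 6 was at 0, and Alb alone passed in the averaged test (log2 difference 0.86 ± 0.18, adjusted p = 0.0391), which held only without wt_normal replicate 1, wt_HFD replicate 1 or ko_HFD replicate 1 among the 12 fits that left out 1 library. Endothelial markers, 5 in number and none at 0, summed to 185 to 220 CPM in wt_normal and 86.0 to 122 CPM in ko_normal, and to 103 to 166 CPM in wt_HFD and 77.1 to 128 CPM in ko_HFD. Lyve1 of this list was lower in ko (log2 difference -1.82 ± 0.35, adjusted p = 0.0345), a call kept in 5 of 12 such fits, those without wt_normal replicate 1, ko_normal replicate 2, wt_HFD replicate 1 or 2, or ko_HFD replicate 3. Stellate markers summed to 118 to 738 CPM in wt_normal and 70.5 to 81.4 CPM in ko_normal, without overlap, and overlapped on HFD at 58.4 to 185 and 57.0 to 116 CPM; none of the 5 passed. The part of these lists in the ko values of the conjugation enzymes was not tested.

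Genes that supply cofactors to these enzymes or export their products were measured beside them, 16 of 19 listed being tested. Abcc3, a pump of the hepatocyte's blood-facing membrane that exports glucuronides, was the one that passed. It measured 190, 175 and 197 CPM in wt_normal and 65.2, 86.1 and 100.04 CPM in wt_HFD, a log2 change of -1.16 ± 0.19 (SE, adjusted p = 0.0240), and it fell by 0.87 ± 0.13 when averaged (adjusted p = 0.0122). Without both libraries that stood apart, the adjusted p was 0.146 in wt and 0.0502 averaged. In wt the call was lost without wt_normal replicate 2 or 3, ko_normal replicate 3, or wt_HFD replicate 1 or 2, with adjusted p up to 0.0830. Ugdh and Ugp2, which make UDP-glucuronic acid, had averaged log2 changes of -0.60 ± 0.17 and -0.58 ± 0.17 (adjusted p = 0.0989 and 0.108). No gene of this list passed in a comparison of ko with wt.

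Of 17 tested genes listed as other targets of the same factors, 2 fell on HFD in wt and none rose. Cyp3a11, a phase I enzyme induced through PXR, ranged from 1274 to 1651 CPM in wt_normal and from 77.8 to 162 CPM in wt_HFD, a log2 change of -3.69 ± 0.31 (adjusted p = 0.000221). It also fell when averaged, by 2.77 ± 0.21 (adjusted p = 0.000134), and both calls were kept in all 12 fits without 1 library. Nqo1, a quinone reductase induced through Nrf2, measured 5.47 to 7.14 CPM in wt_normal and 2.10 to 2.89 CPM in wt_HFD, a log2 change of -1.28 ± 0.26 (adjusted p = 0.0480) that was kept in 2 of 12 such fits, those without ko_normal replicate 1 or ko_HFD replicate 1. The medians of this list and of the cofactor and export list in that comparison were -0.17 and -0.24, beside -0.03 over all genes. Within the list of other targets, the parts differed in sign. The median was -0.19 for Nrf2 targets and -0.22 for Ahr targets. For the 5 PXR and CAR targets, Cyp3a11 among them, it was 0.14, and 0.27 when averaged over genotypes.

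Among 14 factors listed as regulators of phase II genes, Maff, a small Maf partner of Nrf2, was the one that passed. It measured 3.63, 5.33 and 2.76 CPM in wt_normal and 10.8, 17.4 and 33.8 CPM in wt_HFD, a log2 change of 2.40 ± 0.41 (adjusted p = 0.0264). The call was lost without any of the 3 wt_normal replicates, ko_normal replicate 3 or wt_HFD replicate 2, with adjusted p up to 0.0933. Averaged over genotypes Maff rose by 1.46 ± 0.28 (adjusted p = 0.0344), kept in 5 of 12 such fits, those without wt_normal replicate 2, wt_HFD replicate 1 or 3, or ko_HFD replicate 2 or 3. Nfe2l2 itself, which encodes Nrf2, had a log2 change of -0.55 ± 0.24 (adjusted p = 0.263), and Nr1i2, Nr1i3 and Ahr had values of 0.41 ± 0.35, 0.05 ± 0.22 and 0.23 ± 0.29, none passing.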

How the data were processed

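Liver RNA of 12 libraries was sequenced. Read counts per Ensembl gene were deposited, 1 column per library, and the values are whole numbers that are not normalized. CASAVA 1.8, Bowtie 0.12.2 and the genome builds mm8 and mm9 are named, per the submitters' processing notes. The counting tool, its annotation and whether it read strand were not given in the sources used here. Depth was 15465187 to 20492567 counts a library, so a gene at a few counts is known only to counting error or worse. Groups and replicate numbers came from the labels.

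Counts were tested with edgeR 4.0.16 in R 4.3.3: TMM factors, filterByExpr (14433 genes kept, all 44 members among them), and quasi-likelihood F-tests in 1 fit of 4 groups, with 8 residual degrees of freedom. P-values were adjusted by Benjamini-Hochberg over all genes tested, in each of 7 comparisons, and called under 0.05. The comparisons were the diet in each genotype, the genotype on each diet, both averages and the interaction. SE is the log2 change divided by the square root of F. On simulated counts with 4-fold changes the diet test in wt recovered 77.0% of changed genes, and with 2-fold changes 25.5%. For the averaged diet test the shares were 89.9% and 56.1%. The changed genes were drawn from all genes tested, and no simulated library stood apart. These shares are therefore not the power for the members in these libraries. CPM are TMM-scaled; levels between genes were divided by the exon length of GENCODE release M21, whose genome build is later than those in the submitters' notes.

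Symbols came from the reference name table. The members and lists were chosen with earlier results of these data known. Genes were named by rule: Gsta2, Gstm1 and Trp53, every called member, the 3 members of smallest p where fewer than 3 were called, the 3 of highest mean CPM in each family, and called genes of the lists; others were named after their values were seen. Family and class sums are described without a test. Promoters are RefSeq's, by symbol; coding identity came from global alignment of GENCODE coding sequences with Biopython 1.88, in place of the protein alignment first planned. Alternatives were RLE and upper-quartile factors, 2 other count filters, DESeq2 1.42.0 (Wald test), a fit of only the groups compared, a replicate block, each library left out, and both libraries that stood apart left out, the last added after the data were seen.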

Additional observations from a re-analysis of the deposited data

How the results depend on the processing

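No named change reversed under any alternative. The count of members called moved with the filter, the tool and single libraries. Without a filter on low counts it was 9 for HFD in wt, 1 for HFD in ko, 2 for ko on the normal diet, 1 for ko on HFD, 9 for the averaged diet effect, 6 for the averaged genotype effect and 1 for the interaction. With DESeq2 these counts were 8, 2, 2, 2, 9, 8 and 1. A fit of only the groups compared gave 1 for HFD in wt. Leaving out both libraries that stood apart gave 2 for the averaged diet effect. Leaving out 1 library at a time gave 1 to 4 for HFD in wt, 0 throughout for HFD in ko and for ko on the normal diet, 0 to 1 for ko on HFD, 1 to 7 for the averaged diet effect, 0 to 2 for the averaged genotype effect and 0 throughout for the interaction. The cause of these shifts was not tested. DESeq2 aside, shares of all genes called in the alternative fits are not given here. Whether calls over all genes moved alike therefore cannot be read from these counts. The fall of Gsta2 on HFD in wt kept its call under all 20 alternatives, with log2 changes from -5.04 to -4.21. Replicate numbers are shared between groups, but same-numbered libraries did not deviate together throughout (correlations from -0.209 to 0.332), so the numbers were not treated as pairs. With the replicate number as a block, the averaged genotype effect gave 2 members called, Gstt1 and Sult1b1, and no other count moved by more than 1.5 times. The 3 calls for HFD in wt were then Gsta2, Gstp3 and Ugt1a9 (adjusted p = 0.0377), while Gstm1 was not called (0.0582). Family sums moved by less than 1 SD under RLE factors. For genes at few counts, such as Ugt1a9 at 0 to 8 counts a library on HFD, depth limits the size of the change that can be stated.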
